A study of Mus musculus with 20 samples.

Results

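Iron handling was examined through 10 genes, Fth1, Ftl1, Tfrc, Slc11a1, Slc11a2, Slc40a1, Lcn2, Ireb2, Aco1 and Steap3, taken as the rows of the count matrix whose Ensembl gene identifiers carry these symbols. They are 10 of the 55487 genes in the matrix, and all 10 were among the 12799 genes abundant enough to be tested. RNA was sequenced from 20 cultures of BV-2 cells, an immortalised wild-type microglial line set up from brain cultures of C57BL/6 mice aged 1 week, in 4 groups of 5. Young (control) cells were at low passage, and aged cells started from a later passage and had been kept in culture for months before freezing, with aliquots of both thawed together. Each was left untreated or given bacterial lipopolysaccharide (LPS), a ligand of Toll-like receptor 4, at 100 ng/ml for 6 hours. Age therefore stands for time in culture of 1 cell line and not for the age of an animal, and the aged cells come from 1 long-term cultivation, as far as the methods tell. The labels number the cultures of a group 1 to 5 and give the same number as the batch, which thus contains all 4 groups once. Libraries held between 11371508 and 16829292 counts, and levels are given as CPM, the count relative to the TMM-scaled library size.

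The macrophage identity of the line was present in the RNA. All 12 microglia and macrophage markers passed the filter on low counts, led by Cd68 with 974 CPM in young untreated cells, whereas Cx3cr1 and P2ry12, which mark resting microglia, had medians of 0.759 and 1.20 CPM there. Defining genes of astrocytes, neurons, fibroblasts and erythroid cells were at or near 0, with a summed level of 0.0524 CPM for the 4 neuronal genes and 0 for the 4 erythroid genes in young untreated cells. Of the 4 endothelial genes Flt1 alone was abundant, at 320 CPM, while Cldn5 had no count. The summed microglia markers had group means of 3448 CPM (young) and 2828 CPM (aged) without LPS, and 4085 and 3328 CPM after LPS, so this list moved with both factors, and its part in the results below was not tested. In bulk RNA, fewer cells of a kind and less RNA per cell cannot be told apart.

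Young culture 1 and aged culture 3 stood apart from their groups, both without and with LPS. Young untreated culture 1 held 163 CPM summed over 6 genes induced by LPS (Il1b, Il6, Tnf, Nos2, Acod1 and Cxcl10), against 46.7 to 63.5 CPM in the other young untreated cultures. It also held the most microglia markers of its group, 4148 CPM against 2947 to 3529 CPM. Aged untreated culture 3 held 3625 CPM of the microglia markers, against 2477 to 2708 CPM in the other aged untreated cultures. Aged LPS culture 3 held 4210 CPM of the same markers, against 2963 to 3209 CPM in its group, and 3715 CPM of the induced genes, against 2598 to 3034 CPM. It also had the highest Tfrc and the lowest Slc40a1 and Ireb2 of its group. Young LPS culture 1 held 4828 CPM of the microglia markers, against 3493 to 4207 CPM in the other young LPS cultures. Within its group it also had the highest sum of the induced genes (7024 CPM), the highest Tfrc and the lowest Slc40a1. After LPS the 6 induced genes summed to between 4812 and 7024 CPM in young cells and between 2598 and 3715 CPM in aged cells, and results for the 10 genes are given without a culture wherever leaving it out changed a call.

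Cells take up transferrin-bound iron through the transferrin receptor (Tfrc), reduce it in the endosome with a ferrireductase (Steap3) and pass it to the cytosol through the divalent metal transporter DMT1 (Slc11a2). Macrophages carry a related transporter, NRAMP1 (Slc11a1), in the phagosome membrane, where it withdraws metal from ingested microbes. Iron that is not used is stored in ferritin, a shell of heavy (Fth1) and light (Ftl1) chains, or leaves through ferroportin (Slc40a1), and secreted lipocalin 2 (Lcn2) binds bacterial siderophores. The iron regulatory proteins (Aco1 and Ireb2) bind iron-responsive elements, hairpins in the untranslated regions (UTRs) of messenger RNAs, and thereby block translation of ferritin and ferroportin and stabilise the Tfrc transcript when iron is scarce. RNA counts do not record that translational step.

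The hairpin was written here as a bulged C, a stem of 5 base pairs (G-U pairs allowed) and a loop of 6 bases, CAGTGN with the last base not G, and was searched on the transcript strand only in the annotated UTRs of GRCm38. It was found in the 5′ UTR of 23 of 20597 genes with such a UTR (0.112%) and in the 3′ UTR of 100 of 20995 (0.476%). Of the 10 genes, Fth1, Ftl1 and Slc40a1 hold 1 in the 5′ UTR, and Tfrc holds 4 in the 3′ UTR. A match is a description of the sequence, not evidence of binding, and genes without one only lack this pattern of letters and pairing. A hairpin with an unpaired base within the stem would be missed. The lack of a match, as for Slc11a2, therefore does not show that a gene has no iron-responsive element. The elements follow as DNA, 5′ to 3′, with 5 flanking bases before the C bulge and at the 3′ end. The loop is in capitals, and the listing shows only which of the 10 genes match this strict pattern.
Fth1, chr19:9982733-9982759, plus strand, 5′ UTR: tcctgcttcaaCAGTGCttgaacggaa
Ftl1, chr7:45459780-45459806, minus strand, 5′ UTR: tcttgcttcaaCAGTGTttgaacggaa
Slc40a1, chr1:45925466-45925492, minus strand, 5′ UTR: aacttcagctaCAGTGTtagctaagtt
Tfrc, chr16:32631220-32631246, plus strand, 3′ UTR: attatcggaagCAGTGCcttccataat
Tfrc, chr16:32631599-32631625, plus strand, 3′ UTR: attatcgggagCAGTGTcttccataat
Tfrc, chr16:32631664-32631690, plus strand, 3′ UTR: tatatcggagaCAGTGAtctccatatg
Tfrc, chr16:32631711-32631737, plus strand, 3′ UTR: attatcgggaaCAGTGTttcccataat
The ferritin elements shared 25 of 27 bases with each other, and each shared 13 of 27 with that of Slc40a1. Of these 4 transcripts, Fth1 rose after LPS at both ages (log2 1.22 in young and 1.11 in aged cells). Slc40a1 passed at 0.47 and 0.48, but both calls were lost in several alternatives given below. Ftl1 and Tfrc did not pass under TMM scaling with all cultures. Differences between the 4 genes were not tested.

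LPS changed more of these genes than culture age did. In young cells 6 of the 10 rose (Fth1, Slc11a1, Slc11a2, Slc40a1, Lcn2 and Ireb2) and 2 fell (Aco1 and Steap3), where 64.6% of all tested genes passed the same test in either direction (edgeR quasi-likelihood test, Benjamini-Hochberg adjusted p below 0.05). In aged cells the same 6 rose and Aco1 fell, against 54.4% of all genes, and with the replicate block Slc40a1 did not pass (adjusted p = 0.0574). At these backgrounds a share of 8 or 7 in 10 is close to that of genes in general, and what is described below is the size and direction for each gene. The median log2 fold change of the 10 genes was 0.38 in young and 0.37 in aged cells, against −0.011 and 0.00051 over all tested genes. With library sizes alone in place of TMM, the median over all genes moved to −0.23 and −0.16, and changes are therefore relative to the bulk of genes.

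**Figure D1:**
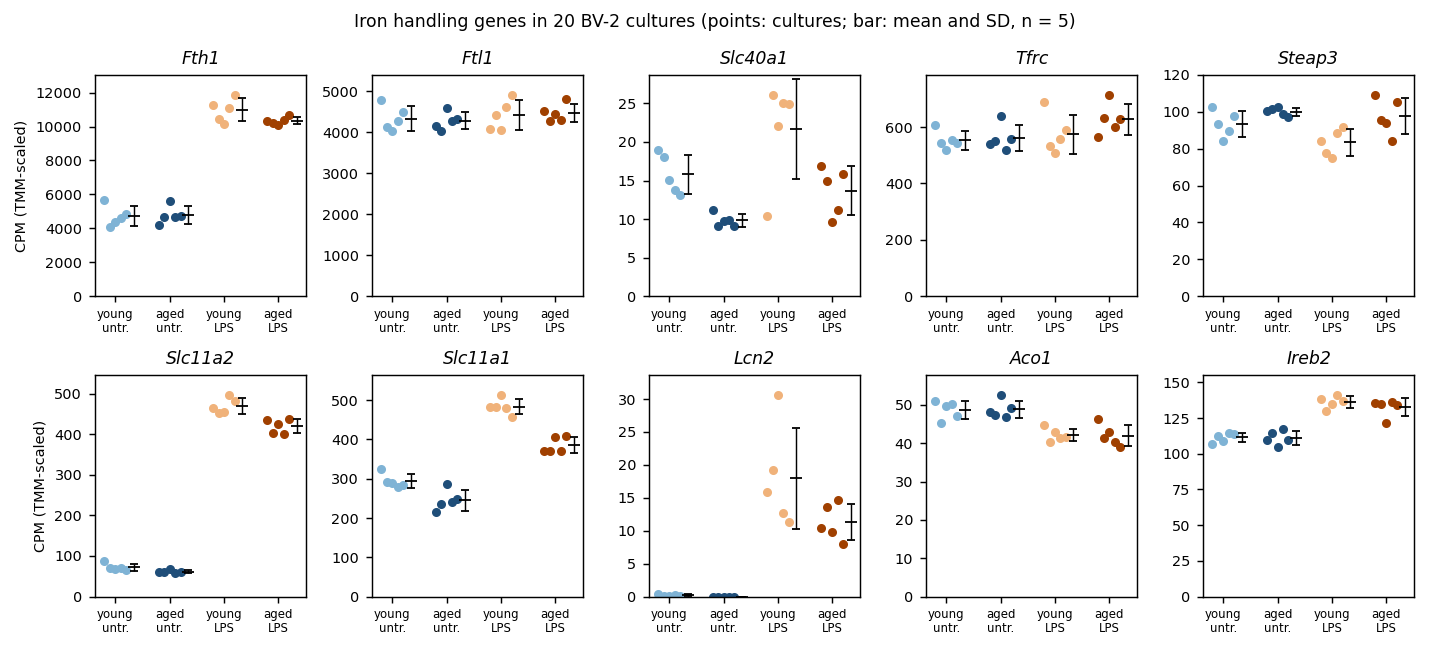
TMM-scaled CPM (y axis, linear from 0, a separate scale for each gene) of the 10 iron handling genes in each of 20 BV-2 cultures, grouped on the x axis as young untreated, aged untreated, young LPS and aged LPS; points are cultures in the order of their replicate numbers and bars give the mean and SD of 5. Fth1 and Slc11a2 after LPS lie above all untreated cultures at both ages, Ftl1 stays between 4024 and 4918 CPM throughout, and Lcn2 has no count in aged untreated cells.

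The ferritin chains, which store iron, had the most abundant RNA of the 10 genes and parted after LPS. Fth1 (chr19:9980598-9985098, plus strand), the ferroxidase chain of ferritin, had 5664, 4080, 4361, 4634 and 4854 CPM in young untreated cultures 1 to 5 and 11292, 10471, 10175, 11107 and 11875 CPM in the young cultures given LPS. In aged cells it had 4185, 4661, 5636, 4674 and 4742 CPM untreated and 10351, 10183, 10103, 10396 and 10659 CPM after LPS. Every LPS culture lay above every untreated culture of its age, and Fth1 had the highest count of all genes in each of the 10 LPS libraries, with a mean of 0.999% of the counts in young and 0.994% in aged LPS cultures. It rose 2.33-fold in young (log2 1.22 ± 0.077 SE, adjusted p = 3.36e-12, edgeR, n = 5 per group) and 2.16-fold in aged cells (1.11 ± 0.077, adjusted p = 3.06e-11), higher in 5 of 5 batches at each age. The high untreated values are those of young culture 1 and aged culture 3, and leaving out any culture left the log2 change between 1.17 and 1.29 in young and between 1.07 and 1.18 in aged cells.

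Ftl1 (chr7:45457944-45459884, minus strand), the light chain that aids mineralisation of the iron core, was between 4024 and 4781 CPM in young cultures and between 4038 and 4604 CPM in aged cultures without LPS. After LPS it was between 4067 and 4918 CPM in young and between 4277 and 4812 CPM in aged cells, and these ranges overlap throughout. Its log2 fold change was 0.028 ± 0.058 in young (adjusted p = 0.694) and 0.061 ± 0.058 in aged cells (adjusted p = 0.395, edgeR, n = 5 per group). With library sizes alone it turned to −0.19 in young cells and passed the test (adjusted p = 0.00547), and to −0.099 in aged cells (adjusted p = 0.145). Counts of processed copies were small beside it (Ftl1-ps1 had 0.176% of the Ftl1 count). An annotated miRNA gene inside its exons on the same strand, Gm22133, held 11.1% as many counts as Ftl1, and adding them gave log2 changes of 0.035 and 0.062.

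The ratio of Fth1 to Ftl1 within a library is free of any scaling between libraries. As read counts it was 1.18, 0.989, 1.08, 1.09 and 1.08 in young untreated cultures and 2.76, 2.37, 2.50, 2.41 and 2.41 after LPS. The aged cultures had ratios of 1.01, 1.15, 1.22, 1.09 and 1.09 untreated and 2.29, 2.38, 2.28, 2.42 and 2.21 after LPS. The lowest ratio after LPS was thus above the highest untreated ratio, and the young and aged values overlapped in each condition. Which chain is the more abundant per length in untreated cells depends on the Fth1 transcript assumed: per kilobase, young untreated Ftl1 was 4480 ± 313 CPM (SD, n = 5), and Fth1 was 5079 ± 649 CPM with a principal transcript of 929 bases and 3158 ± 404 CPM with one of 1494 bases. After LPS Fth1 was above Ftl1 with either length.

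**Figure D2:**
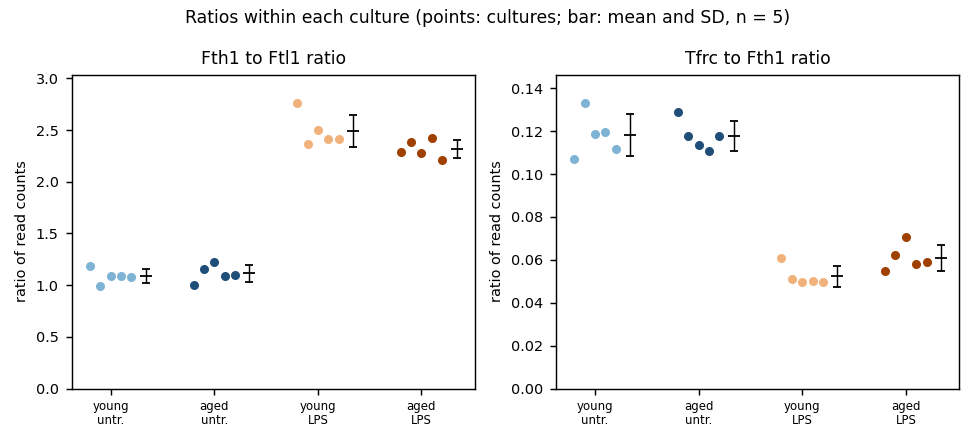
Ratio of read counts within each culture (y axes, linear from 0, not corrected for transcript length), Fth1 to Ftl1 on the left and Tfrc to Fth1 on the right, for young and aged BV-2 cells untreated or given LPS; points are cultures, bars the mean and SD of 5. The Fth1 to Ftl1 ratio goes from a median of 1.08 to 2.41 in young and from 1.09 to 2.29 in aged cells, and the Tfrc to Fth1 ratio from 0.119 to 0.0501 and from 0.118 to 0.0589.

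Of the uptake genes, the RNA of the transporters rose after LPS, while that of the receptor did not pass under TMM scaling with all cultures. Slc11a2 (chr15:100387898-100425072, minus strand), which moves ferrous iron across endosomal and plasma membranes, had 88.0, 69.7, 68.6, 71.0 and 65.5 CPM in young untreated cultures and 464, 452, 455, 497 and 482 CPM after LPS. Aged cultures had 61.1, 60.2, 67.1, 59.2 and 59.9 CPM untreated and 435, 403, 425, 399 and 437 CPM after LPS. It rose 6.48-fold in young (log2 2.70 ± 0.065, adjusted p = 5.50e-19) and 6.83-fold in aged cells (2.77 ± 0.065, adjusted p = 7.92e-19, edgeR, n = 5 per group), after Lcn2 the largest rise among the 10 genes at both ages. Every LPS culture was far above every untreated one. An antisense gene that shares exon bases with it, Gm5475, held 0.0319% of its count. Its untreated level was highest in young culture 1, the culture that also held the most LPS-induced and microglia marker RNA.

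Slc11a1 (chr1:74375195-74386062, plus strand), the phagosomal transporter, had 324, 292, 290, 279 and 285 CPM in young untreated cultures and 483, 483, 513, 481 and 458 CPM after LPS. The aged values were 215, 235, 288, 241 and 249 CPM untreated and 371, 371, 407, 371 and 410 CPM after LPS. It rose 1.64-fold in young (log2 0.72 ± 0.062, adjusted p = 7.59e-10) and 1.57-fold in aged cells (0.65 ± 0.062, adjusted p = 6.64e-09, edgeR, n = 5 per group), with no overlap between treated and untreated cultures of an age. Per kilobase of transcript it was above Slc11a2 by far in untreated young cells, 127 ± 7.67 against 24.0 ± 2.92 CPM (SD, n = 5), and the gap was smaller after LPS, 209 ± 8.54 against 155 ± 6.27 CPM.

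Tfrc (chr16:32608920-32632794, plus strand), the receptor for transferrin-bound iron, ranged from 519 to 607 CPM in young and from 519 to 640.5 CPM in aged untreated cells. After LPS it ranged from 508 to 687 CPM in young and from 566 to 715 CPM in aged cells, with overlap in both. Its log2 fold change was 0.057 ± 0.075 (adjusted p = 0.527) in young and 0.16 ± 0.075 (adjusted p = 0.0725, edgeR, n = 5 per group) in aged cells, in which it was higher in 5 of 5 batches. The aged value passed without aged untreated culture 3 (0.21, adjusted p = 0.0207) or without aged LPS culture 1 (0.19, adjusted p = 0.0497). With library sizes alone the young value turned to −0.16 and passed the test (adjusted p = 0.0423). Leaving out young LPS culture 1, at 687 CPM, also turned it to below 0 (−0.016, adjusted p = 0.859). The Tfrc to Fth1 ratio, which needs no scaling, was between 0.107 and 0.133 in the 10 untreated cultures and between 0.0496 and 0.0708 in the 10 LPS cultures.

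Steap3 (chr1:120190757-120272705, minus strand), the endosomal ferrireductase, ranged from 84.3 to 102 CPM in young untreated and from 74.8 to 91.9 CPM in young LPS cultures, lower in 5 of 5 batches though the groups overlap. Its fall was small (log2 −0.17 ± 0.069, adjusted p = 0.0393, edgeR, n = 5 per group) and did not pass with DESeq2 (adjusted p = 0.0773), with RLE scaling (adjusted p = 0.0608), or in 6 of 10 fits that left out 1 culture (young untreated 1, 2 or 5, young LPS 1, 2 or 3). Among aged cultures it ranged from 97.2 to 102 CPM untreated and from 84.2 to 109 CPM after LPS, with a log2 fold change of −0.034 ± 0.068 (adjusted p = 0.699). With library sizes alone the aged value passed the test at −0.19 (adjusted p = 0.0162).

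RNA of the exporter was low throughout. Slc40a1 (chr1:45908068-45926523, minus strand), ferroportin and the only known cellular iron exporter, had 18.9, 18.1, 15.0, 13.8 and 13.2 CPM in young untreated cultures and 10.4, 26.1, 22.1, 25.0 and 25.0 CPM after LPS. Aged cultures had 11.2, 9.08, 9.82, 9.94 and 9.12 CPM untreated and 16.9, 14.9, 9.66, 11.1 and 15.8 CPM after LPS. Young LPS culture 1 was the exception in its group and lay below every young untreated culture. The rise was 1.38-fold in young (log2 0.47 ± 0.18, adjusted p = 0.0276) and 1.39-fold in aged cells (0.48 ± 0.19, adjusted p = 0.0400, edgeR, n = 5 per group), in 4 of 5 batches each. With the replicate block the aged rise did not pass (adjusted p = 0.0574), with library sizes alone neither did (adjusted p = 0.231 in young and 0.168 in aged cells), and the call was lost in 6 of 10 fits without 1 culture in young cells (untreated 3, 4 or 5, LPS 2, 4 or 5) and in 7 of 10 in aged cells (untreated 2, 3, 4 or 5, LPS 1, 2 or 5). Without young LPS culture 1 the young rise was larger (0.63, adjusted p = 0.000259).

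The RNA for siderophore binding showed the steepest change after LPS, from counts near 0. Lcn2 (chr2:32384633-32388252, minus strand), the secreted siderophore trap of acute inflammation, had 6, 1, 2, 4 and 1 counts in young untreated cultures and 0 in all 5 aged untreated cultures, which allows up to 3 counts in each, a mean of 0.186 CPM. After LPS it had 160, 232, 444, 171 and 154 counts in young and 148, 165, 143, 189 and 110 counts in aged cultures. No treated culture came near an untreated one. The young ratio of LPS to untreated was 100 (95% interval 59.5 to 184, from counting error only), adjusted p = 7.81e-11 (edgeR, n = 5 per group). In aged cells it was at least 60.6-fold higher, computed against the floor of 3 counts per library, adjusted p = 3.24e-10 (edgeR). Even after LPS the level was modest, with means of 18.0 ± 7.70 CPM (young) and 11.3 ± 2.76 CPM (aged, SD, n = 5), with young culture 3 the highest at 30.6 CPM.

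The regulators moved little and in opposite directions. Ireb2 (chr9:54863789-54912530, plus strand), iron regulatory protein 2, ranged from 107 to 115 CPM in young and 105 to 118 CPM in aged untreated cells, and from 130 to 141 CPM and 122 to 136 CPM after LPS, without overlap at either age. It rose 1.22-fold in young (log2 0.29 ± 0.043, adjusted p = 3.43e-06) and 1.19-fold in aged cells (0.25 ± 0.043, adjusted p = 3.02e-05, edgeR, n = 5 per group). With library sizes alone both calls were lost (log2 0.070, adjusted p = 0.197, and 0.093, adjusted p = 0.0944), so this rise is one relative to the bulk of genes. Aco1 (chr4:40143081-40198338, plus strand), iron regulatory protein 1, which acts as a cytosolic aconitase when it holds an iron-sulphur cluster, ranged from 45.4 to 51.1 CPM in young and 46.8 to 52.6 CPM in aged untreated cells, and from 40.3 to 44.7 CPM and 39.1 to 46.4 CPM after LPS. It fell by 0.21 ± 0.054 on the log2 scale in young (adjusted p = 0.00163) and by 0.22 ± 0.053 in aged cells (adjusted p = 0.00140, edgeR), lower in 5 of 5 batches at each age.

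**Figure D3:**
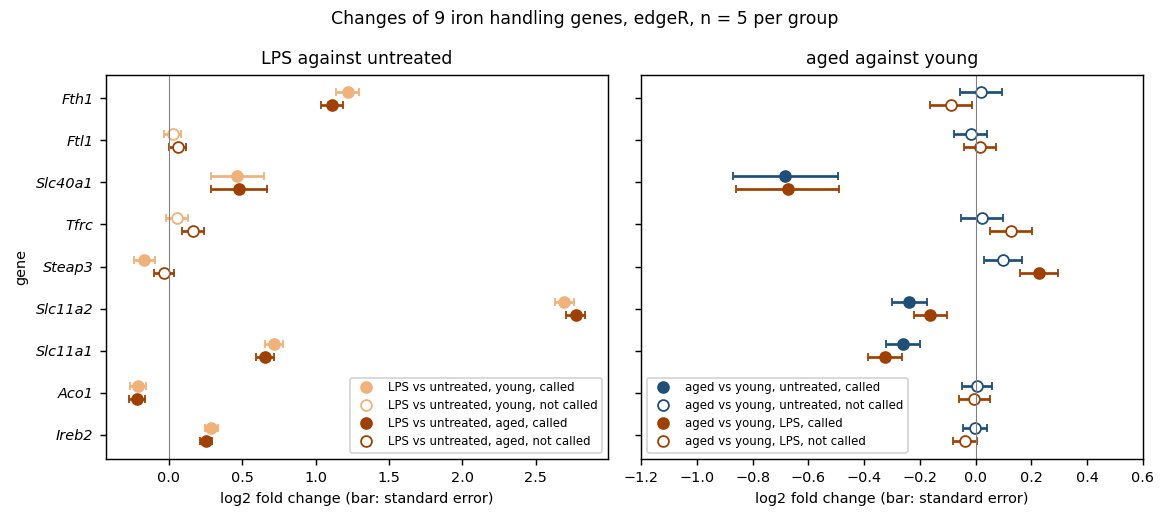
Log2 fold changes (x axes) of 9 iron handling genes (y axis), with LPS against untreated on the left and aged against young on the right; points are edgeR estimates from 5 cultures per group, bars standard errors, and filled points passed an adjusted p of 0.05. Lcn2 is left out because aged untreated cells had no count. Slc11a2 lies at 2.70 and 2.77 on the left, and on the right Slc40a1, Slc11a1 and Slc11a2 lie below 0 both without and with LPS.

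Without LPS, aged cells had less RNA of 3 transporters and no gene of the 10 was higher. Slc40a1 was 1.60-fold lower (log2 −0.68 ± 0.19, adjusted p = 0.0210), and its highest aged culture, 11.2 CPM, was below its lowest young culture, 13.2 CPM. Slc11a1 was 1.20-fold lower (−0.26 ± 0.062, adjusted p = 0.00834) and Slc11a2 1.18-fold lower (−0.24 ± 0.063, adjusted p = 0.0170, edgeR, n = 5 per group), each lower in 5 of 5 batches with an overlap between the groups, and Slc11a2 did not pass when only these groups were fitted (adjusted p = 0.0507). The background was 11.5% of all tested genes called in either direction. Without young culture 1, which held the most LPS-induced RNA, Slc11a1 (−0.22, adjusted p = 0.0284) and Slc11a2 (−0.16, adjusted p = 0.0439) still passed and Slc40a1 did not (−0.61, adjusted p = 0.0582); Slc40a1 was also lost without young culture 2 or aged culture 2. The 6 LPS-induced genes were themselves lower in aged untreated cells, with a mean summed level of 21.6 CPM against 73.4 CPM in young cells. The young mean includes 163 CPM in culture 1, and the other young cultures had 46.7 to 63.5 CPM, against 17.6 to 25.8 CPM in aged cultures. Acod1 alone had a mean of 41.9 CPM in young cells. The part of these genes in the differences was not tested.

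Both ferritin chains, the receptor and both regulators did not pass between aged and young untreated cells, with log2 fold changes of −0.018 ± 0.058 for Ftl1, 0.019 ± 0.076 for Fth1, 0.022 ± 0.075 for Tfrc, −0.0026 ± 0.043 for Ireb2 and 0.0048 ± 0.053 for Aco1. These values change sign under single alternatives and are best read with their standard errors. Steap3 was at 0.097 ± 0.068 (adjusted p = 0.399). Lcn2, with 14 counts over 5 young libraries and 0 over 5 aged ones, did not pass in edgeR (adjusted p = 0.108) and did in DESeq2 (adjusted p = 0.00247), and 6 of the 14 counts came from young culture 1.

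After LPS, 5 genes differed between the ages, 4 lower in aged cells and 1 higher, against 29.0% of all tested genes called. Slc11a1 was 1.25-fold lower (log2 −0.32 ± 0.062, adjusted p = 0.000356) with no overlap, 371 to 410 CPM in aged against 458 to 513 CPM in young cultures. Slc40a1 was 1.59-fold lower (−0.67 ± 0.18, adjusted p = 0.00817), lower in 4 of 5 batches, and young LPS culture 1 was the exception; without it the difference was −0.84. Slc11a2 was 1.12-fold lower (−0.16 ± 0.060, adjusted p = 0.0465) with no overlap, 399 to 437 against 452 to 497 CPM, and its call was lost in 8 of 10 fits without 1 culture (any young LPS culture, or aged LPS 2, 3 or 4), without a filter (adjusted p = 0.113) and with library sizes alone (−0.082, adjusted p = 0.286). Steap3 was 1.17-fold higher (0.23 ± 0.069, adjusted p = 0.0151, edgeR, n = 5 per group), in 4 of 5 batches, and did not pass without young LPS culture 3 (0.19, adjusted p = 0.0534). The genes that did not pass were Fth1 (−0.087 ± 0.076), Tfrc (0.13 ± 0.075), Ftl1 (0.015 ± 0.058), Ireb2 (−0.040 ± 0.043) and Aco1 (−0.0042 ± 0.054). Of these Tfrc passed without young LPS culture 1 (0.20, adjusted p = 0.0322) and with library sizes alone (0.21, adjusted p = 0.0234).

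Lcn2 was 1.60-fold lower in aged than in young LPS cultures (log2 −0.68 ± 0.23, adjusted p = 0.0371, edgeR, n = 5 per group). The groups overlap, at 7.96 to 14.6 CPM and 11.3 to 30.6 CPM. Without young culture 3 the difference was −0.39 (adjusted p = 0.169), DESeq2 gave an adjusted p of 0.0966, and the call was lost in 5 of 10 fits without 1 culture (young LPS 2 or 3, aged LPS 1, 3 or 5). Of the 5 calls between the ages under LPS, 2 were left without young LPS culture 3, and 3 without young LPS culture 2 or without aged LPS culture 3. The 6 LPS-induced genes had mean sums of 5995 CPM (young) and 3005 CPM (aged) with LPS, which moved in the same direction as the 4 lower genes, and their part was not tested.

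Whether the LPS response itself differed with age was tested as a difference of the log2 changes, aged minus young. None of the 10 genes passed in edgeR, where 6.39% of all tested genes were called, and 1 (Lcn2) had an unadjusted p below 0.05. DESeq2 called Lcn2 alone (adjusted p = 0.0293), and its own share over all genes is not given here. The difference for Lcn2 depends on how the 0 counts of aged untreated cells are treated, so its fitted size is not given as a fold. The other 9 genes had differences between −0.11 and 0.13 with adjusted p from 0.518 to 0.993. For Fth1 the difference was −0.11 ± 0.11 and for Slc11a2 0.076 ± 0.087, which does not show that the responses were equal, and both standard errors are small beside the responses themselves. The comparisons of LPS with untreated and of aged with young cultures share cultures and are not independent of each other.

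The order of the levels across groups can be stated for the clearest genes. Slc11a2 ran from aged untreated (61.5 ± 3.19 CPM) through young untreated (72.6 ± 8.84) and aged LPS (420 ± 17.9) to young LPS (470 ± 19.0, SD, n = 5), where the ages passed the test within each condition, with the limits given above. Slc11a1 had the same order, 246 ± 26.6, 294 ± 17.8, 386 ± 20.3 and 483 ± 19.8 CPM. For both genes the step from young untreated to aged LPS was not tested, and its cultures do not overlap. For Fth1 the untreated groups at 4719 ± 603 (young) and 4780 ± 528 CPM (aged) did not differ beyond their spread, nor did the LPS groups at 10984 ± 675 and 10338 ± 215 CPM, although in 5 of 5 batches the aged LPS culture was the lower. Slc40a1 was lowest in aged untreated cells (9.83 ± 0.854 CPM), followed by aged LPS (13.7 ± 3.14), young untreated (15.8 ± 2.57) and young LPS (21.7 ± 6.51), and the middle groups overlap. Across genes, per kilobase of transcript, young untreated cells ran from the ferritin chains down through Slc11a1 (127 ± 7.67 CPM, SD, n = 5), Tfrc (113 ± 6.76), Slc11a2 (24.0 ± 2.92), Ireb2 (19.3 ± 0.560), Aco1 (12.7 ± 0.622) and Slc40a1 (4.69 ± 0.762) to Lcn2 (0.203 ± 0.165). In young LPS cultures Slc11a2 (155) stood above Tfrc (118). There Lcn2 (19.6) came from last place to stand above Aco1 (11.0) and Slc40a1 (6.44). Steap3 is not placed in this order, because its principal transcripts run from 2752 to 5158 bases. Its rank among Slc11a2, Ireb2 and, after LPS, Lcn2 depends on which is taken.

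By the distance between centred log2 CPM profiles over the 20 libraries, the tested genes most like Slc11a2 were Lilrb4a, Zc3h12c and Gm49339, with root mean square log2 differences of 0.154, 0.156 and 0.173, where the profile of Slc11a2 itself had an SD of 1.41. Nearest to Fth1 were Arhgap22, Lrp12 and Rbmx (0.115 to 0.120), and nearest to Slc11a1 were Tgif1, Med15 and Cyfip1 (0.0807 to 0.0972). For Slc40a1 they were Ypel5, Nlrp1a and 2310034O05Rik (0.180 to 0.286), and for Lcn2, whose log2 values rest on a prior count in untreated cells, Cdc42ep2, Ccl4 and Zfp811 (0.437 to 0.491). For the genes of small change the distances say less: Ambra1, Eif4g1 and Ddx39b were nearest to Ireb2 (from 0.0423, SD 0.149), Elp2, Gtf3c1 and Gpkow to Aco1 (from 0.0696, SD 0.129), and Prmt7, Adk and Fkbp4 to Steap3 (from 0.0780, SD 0.147).

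The wider pathway was described with 67 further genes in 8 lists, of which 48 were abundant enough to be tested. Cultures were not left out in turn for these genes. After LPS 14 rose and 17 fell in young cells and 12 rose and 12 fell in aged cells, with medians of −0.026 and −0.034 on the log2 scale against −0.011 and 0.00051 over all genes. These shares of the 48 are close to the 64.6% and 54.4% of all tested genes called in young and aged cells. Between aged and young cells 2 were higher and 3 lower untreated and, after LPS, 4 were higher and 9 lower. Both shares are near the 11.5% and 29.0% of all genes. With the replicate block 10 of the 48 passed untreated, where 17.2% of all genes did. The LPS response differed for Cpox and Slc25a37, where 6.39% of all genes were called. Among the 19 not tested were the hormone hepcidin (Hamp), the second transferrin receptor (Tfr2) and the haemoglobin scavenger receptor (Cd163), which shows only that their counts were below the filter.

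Of the genes for haem breakdown and transport, 4 rose and 4 fell among 9 tested in young cells, and 4 rose and 2 fell in aged cells. The shares over all tested genes were 64.6% and 54.4%. Hmox1, haem oxygenase 1, which frees iron from haem, went from 154 ± 10.6 to 908 ± 280 CPM in young (log2 2.56 ± 0.19, adjusted p = 7.60e-11) and from 161 ± 18.2 to 621 ± 134 CPM in aged cells (1.95 ± 0.19, adjusted p = 9.28e-09, edgeR, n = 5 per group). It was lower in aged than in young LPS cultures (−0.55 ± 0.18, adjusted p = 0.0263). Biliverdin reductase A (Blvra), which turns the biliverdin made by haem oxygenase into bilirubin, fell by 0.40 in young (adjusted p = 0.00430) and by 0.30 in aged cells (adjusted p = 0.0315). Biliverdin reductase B (Blvrb), a separate reductase of flavins and other biliverdin isomers, rose by 1.01 and 0.75 and was lower in aged cells both untreated (−0.70 ± 0.13, adjusted p = 0.000947) and after LPS (−0.96 ± 0.12). Slc46a1, a folate and haem importer, fell by 0.59 and by 0.50.

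Of 8 tested genes of haem synthesis, 1 rose and 5 fell at each age, beside 64.6% (young) and 54.4% (aged) of all tested genes called. Alas1, the rate-limiting first enzyme, rose by 0.70 ± 0.093 in young and 0.51 ± 0.094 in aged cells and was lower in aged cells untreated (−0.29, adjusted p = 0.0448) and after LPS (−0.48, adjusted p = 0.000454). Cpox, coproporphyrinogen oxidase, fell from 37.7 ± 1.86 to 22.4 ± 2.22 CPM in young and from 36.8 ± 1.42 to 30.3 ± 3.68 CPM in aged cells, and this difference in response passed (0.47 ± 0.11, adjusted p = 0.00919, edgeR, n = 5 per group). Urod, uroporphyrinogen decarboxylase, fell by 0.53 and by 0.44.

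For iron uptake, 3 of 8 tested genes rose and 2 fell in young cells, against 64.6% of all genes called. In aged cells 3 rose and 1 fell, against 54.4%. Slc11a1 and Slc11a2 were among those that rose at both ages, and Steap3 among those that fell in young cells. Transferrin (Trf) was at −0.33 after LPS in young cells (edgeR adjusted p = 0.0783, and 0.00523 with the replicate block, which passes). Between aged and young untreated cells Trf was at −0.39 (adjusted p = 0.131, and 0.0124 with the block, which passes). Slc39a14, the ZIP14 importer of iron that is not bound to transferrin, rose by 0.89 ± 0.070 and 0.60 ± 0.070 and was higher in aged untreated cells (0.34 ± 0.070, adjusted p = 0.00275). Between the ages under LPS it did not pass (0.056 ± 0.069, edgeR adjusted p = 0.601). Hfe, a partner of the transferrin receptors, fell by 1.13 ± 0.15 in young and by 1.21 ± 0.16 in aged cells and was lower in aged cells untreated (−0.58, adjusted p = 0.0106) and after LPS (−0.66, adjusted p = 0.00421). In storage, the iron chaperone Pcbp2 rose by 0.27 and 0.21. Its relative Pcbp1 rose by 0.17 in young cells (adjusted p = 0.0256) and was at 0.14 in aged cells (adjusted p = 0.0621, and 0.0357 with the replicate block, which passes). Ncoa4, which delivers ferritin to the lysosome, was at −0.083 and −0.043 (adjusted p = 0.224 and 0.564). In export, ceruloplasmin (Cp), the ferroxidase that works with ferroportin, was sparse but rose from 1.10 ± 0.487 to 4.42 ± 1.73 CPM in young cells (log2 1.99 ± 0.28) and from 0.595 ± 0.207 to 1.56 ± 0.344 CPM in aged cells (1.39 ± 0.35), and was lower in aged than in young LPS cultures (−1.49 ± 0.27, adjusted p = 0.000215).

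Fbxl5, the iron sensor that targets iron regulatory proteins for degradation, rose by 0.17 ± 0.057 in young cells (adjusted p = 0.0133) and was at 0.061 in aged cells (adjusted p = 0.385). Beside Lcn2, the siderophore list had 1 tested gene, Bdh2, which did not pass after LPS (0.37, adjusted p = 0.123, in young cells). Of 21 genes for mitochondrial iron import and Fe-S cluster assembly, 4 rose and 7 fell in young cells and 4 rose and 4 fell in aged cells. These shares are below the 64.6% and 54.4% of all tested genes called. The mitochondrial iron importer mitoferrin 1 (Slc25a37) rose by 1.00 ± 0.081 in young and 0.58 ± 0.080 in aged cells, a difference that passed (−0.42 ± 0.11, adjusted p = 0.0272), and its relative mitoferrin 2 (Slc25a28) was higher in aged untreated cells (0.19, adjusted p = 0.0376). Fdxr, which feeds electrons to cluster assembly, fell by 1.02 ± 0.11 and by 0.81 ± 0.11, and the co-chaperone Hscb fell by 0.63 and by 0.36.

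**Figure D4:**
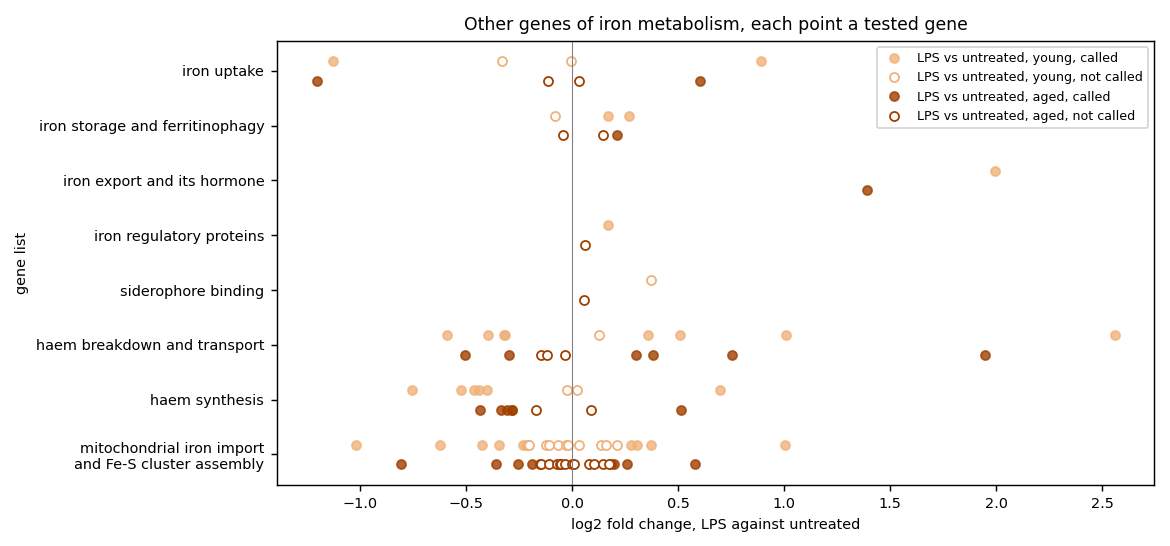
Log2 fold change after LPS (x axis) of the 48 tested genes in 8 lists of iron metabolism other than the 10 iron handling genes (y axis, list names); each point is a gene, orange for young and brown for aged BV-2 cells, filled where the adjusted p was below 0.05 in edgeR with 5 cultures per group. Hmox1, Cp, Slc25a37 and Blvrb lie furthest to the right in young cells, Hfe and Fdxr furthest to the left, and haem synthesis has 5 filled points below 0 at each age.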

How the data were processed

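Deposited values were whole-number counts per Ensembl gene, made by the authors without normalization from stranded mRNA libraries. The submitters' processing notes name FastQC 0.11.8, STAR 2.6.1d, featureCounts 1.5.1 and DESeq2, and reads were aligned to GRCm38. How strand, multimapped reads and shared exons were handled is not given in the sources used here, so Ftl1 and its overlapping genes are uncertain to that extent. Columns were matched to the labels by name.

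Counts were tested with edgeR's quasi-likelihood test in 1 model of the 4 groups over 20 libraries, after TMM scaling (factors 1.04 to 1.08 untreated, 0.891 to 0.973 with LPS) and filterByExpr. Adjusted p-values are Benjamini-Hochberg values over the 12799 genes kept. Versions were R 4.3.3, limma 3.58.1 and edgeR 4.0.16. Alternatives were DESeq2 1.42.0, RLE scaling, library sizes alone, no filter, only the groups compared, stricter thresholds and leaving out each culture. Scripts were tested on simulated data. Log2 CPM used a prior count of 2. Intervals and the floor of 3 counts cover counting error only. Levels per kilobase used the longest APPRIS principal transcript of GENCODE vM21 unless stated. Nothing in the labels says that replicates came from separate thawed aliquots, and p-values measure the spread between these cultures.

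Replicate numbers are batch numbers in the labels and pair the cultures. Log2 CPM deviations from the group mean had, between cultures of one number, a mean correlation of 0.146 over 30 pairs, and of 0.276 and 0.260 between untreated and LPS cultures of young and aged cells. Between the ages it was 0.111 untreated (lowest pair −0.084) and 0.042 with LPS (lowest −0.21), so the pairing rests on the labels. Counts of replicates differed by more than sampling noise in all 40 pairs within groups (chi-square per degree of freedom 2.42 to 26.8).

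The 10 genes and the lists were chosen with earlier results of these data known. Named beside them are, in each list, up to 3 genes with the largest mean LPS response among those called, likewise for age without LPS, and the 3 genes of nearest profile. Hjv is listed as Hfe2 in the annotation. Blvra, Ncoa4, Bdh2 and the untested genes were named for their roles after the values were seen. Trf was named because the replicate block changed its calls. One list of cell type markers is not reported here.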

Additional observations from a re-analysis of the deposited data

Results flagged for a closer look

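Of 40 sets of 5 cultures (10 genes in 4 groups), 4 held a culture far from the other 4 by Dixon's criterion at the 95% level, where chance alone marks about 1 in 20 sets. Slc11a2 was at 88.0 CPM in young untreated culture 1, with the next culture at 71.0 CPM. Slc11a2 was also at 67.1 CPM in aged untreated culture 3, with the next at 61.1 CPM. Slc40a1 was at 10.4 CPM in young LPS culture 1, with the nearest at 22.1 CPM, and Ireb2 was at 122 CPM in aged LPS culture 3, with the nearest at 134 CPM.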

How the results depend on the processing

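The rises of Fth1, Slc11a1, Slc11a2 and Lcn2 after LPS at both ages and the fall of Aco1 kept their direction and an adjusted p below 0.05 under every other tool, scaling, filter and left-out culture tried. So did the lower Slc11a1 of aged cells, untreated and under LPS, and their lower Slc40a1 under LPS, although the Slc40a1 groups overlapped. Asking for a log2 change of at least 0.5 left 1 of the 10 genes between aged and young untreated cells, 4 after LPS in young and 4 in aged cells, and 2 between the ages under LPS. At an adjusted p of 0.01 there were 1 untreated and 2 under LPS. For the difference of responses DESeq2 called 1 with and 1 without the replicate block. Leaving out each culture gave 2 to 3 (aged against young untreated), 6 to 7 (LPS, young), 6 to 7 (LPS, aged), 2 to 5 (aged against young under LPS) and 0 (difference of responses). The edgeR replicate block changed 1 call, the rise of Slc40a1 in aged cells (log2 0.47, adjusted p = 0.0574). Of the 48 further genes it called 34 and 27 after LPS in young and aged cells and 16 between the ages under LPS. Without the block, 64.6%, 54.4% and 29.0% of all tested genes were called in these comparisons. The shares of all genes with the block are not given here, so these counts are not read as a result about the lists. Over all genes DESeq2 with the block called 2233 genes between aged and young untreated cells, against 1475, and 1351 for the difference of responses, against 818. An adjusted p of 0.01 left 622 genes untreated, 2333 under LPS (against 3717) and 328 for the difference, and a log2 change of 0.5 left 475, 1289 and 385, with 4497 and 3239 for LPS in young and aged cells (against 8270 and 6968). Leaving out a culture gave 954 to 1578 between aged and young untreated cells.

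In the alternatives run, no value changed direction that had passed the test, and the causes were not tested. Between aged and young untreated cells Ireb2 turned to 0.0026 (DESeq2), 0.0019 (DESeq2 with block), 0.0030 (RLE), 0.018 (library sizes alone), 0.00086 (no filter) and 0.011 (only the groups compared), and Ftl1 to 0.0027 (library sizes alone). Library sizes alone gave −0.19 for Ftl1 and −0.16 for Tfrc after LPS in young cells and −0.099 for Ftl1 in aged cells. Under LPS, aged against young, they gave 0.041 for Ireb2 and 0.076 for Aco1, and Aco1 was at 0.0066 without a filter and 0.0021 with only the groups compared. Leaving out 1 culture spanned −0.046 to 0.019 (Ftl1), −0.048 to 0.093 (Fth1), −0.030 to 0.058 (Tfrc), −0.023 to 0.017 (Ireb2) and −0.024 to 0.023 (Aco1) between aged and young untreated cells. It spanned −0.013 to 0.065 (Ftl1) and −0.016 to 0.098 (Tfrc) after LPS in young cells, −0.087 to 0.015 (Steap3) after LPS in aged cells, −0.014 to 0.056 (Ftl1) and −0.041 to 0.021 (Aco1) between the ages under LPS, and −0.0021 to 0.11 for the difference of Slc11a2 responses. Adding Gm22133 to Ftl1 or leaving Fth1 out of the table, both chosen after seeing the data, ended no call of another gene. Depth limits Lcn2 in untreated cells, at 0 to 6 counts per library.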
